A study of Mus musculus with 50 samples.

Results

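The genes that write, read and erase DNA methylation are themselves part of the methylated genome, and 10 of them were examined here in the soleus, a slow-twitch calf muscle, of mice with and without Dnmt3a in their muscle fibres. The members were Dnmt3a, Dnmt3b, Dnmt1, Uhrf1, Tet1, Tet2, Tet3, Tdg, Mbd2 and Mbd3. A CpG was taken when the deposited table assigned it to the promoter or the body of a member by its Ensembl identifier. This gave 160 CpGs in 28 clusters of neighbouring CpGs, out of 205304 CpGs in 51038 clusters. A cluster is a run of CpGs no more than 100 bp apart along the genome. All 10 members were represented, by between 1 CpG (Tdg) and 24 CpGs (Tet1 and Tet3). The genes were chosen by name and role, with earlier results of these data known, and the assignment of CpGs used no measured value.

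DNMT3A and DNMT3B are de novo methyltransferases, which place a methyl group on cytosines of unmethylated CpGs. DNMT1 copies methylation onto the new strand at replication, and UHRF1 brings it to hemimethylated CpGs. TET1, TET2 and TET3 oxidise methylcytosine, and TDG, a DNA glycosylase, removes the further oxidised bases so that repair restores an unmethylated cytosine. MBD2 binds methylated CpGs and MBD3 is its close relative, each within a form of the NuRD chromatin remodelling complex. CpG-rich promoters are unmethylated in most tissues whether or not their gene is active, whereas CpGs in gene bodies are commonly methylated. Bisulfite conversion does not tell methylcytosine from the hydroxymethylcytosine that TET enzymes make, so a methylation level here counts both.

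All mice were C57BL/6, 12 weeks of age, and carried Dnmt3a alleles with loxP sites around exon 19 (Dnmt3a flox/flox), the controls included. The knockout mice (mD3AKO) also carried mCK-Cre, a Cre transgene under the muscle creatine kinase promoter, which is active late in muscle differentiation and not in the other cells of the muscle. Mice ran on a treadmill for 30 min and were killed 10, 30 or 60 min later, and the rest group was placed on a still treadmill. Reduced representation bisulfite sequencing (RRBS) was performed on 1 soleus per mouse, from 5 wild-type (WT) and 5 mD3AKO mice at rest, 5 and 5 at 10 min, 5 and 7 at 30 min, and 6 of each at 60 min. These 44 samples, 21 WT and 23 mD3AKO, held 11 and 12 males.

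The sequences below show where the CpGs of some member clusters lie, without the Mbd2 cluster that passed the genotype test. They are from GRCm38 on the + strand with 20 bases on either side of the cluster, and the capitals mark the CpGs that were measured. RRBS fragments begin at CCGG, the site of MspI, and 36 of the 160 member CpGs (22.5%) lay within such a site. The first sequence lies directly upstream of an internal start of Dnmt3a. The next 3 are intronic clusters of the TET genes with intermediate or high methylation, and the last is an intronic cluster of Dnmt1 with high methylation.
Dnmt3a, chr12:3891606-3891687: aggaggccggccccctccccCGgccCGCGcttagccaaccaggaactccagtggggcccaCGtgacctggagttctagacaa
Tet1, chr10:62891050-62891158: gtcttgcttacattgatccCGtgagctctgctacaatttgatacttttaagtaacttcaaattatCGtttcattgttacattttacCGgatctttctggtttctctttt
Tet2, chr3:133534131-133534241: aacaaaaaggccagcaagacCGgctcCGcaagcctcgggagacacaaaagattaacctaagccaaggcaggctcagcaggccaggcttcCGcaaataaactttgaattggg
Tet3, chr6:83451974-83452025: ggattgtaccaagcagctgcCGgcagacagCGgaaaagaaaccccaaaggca
Dnmt1, chr9:20958759-20958872: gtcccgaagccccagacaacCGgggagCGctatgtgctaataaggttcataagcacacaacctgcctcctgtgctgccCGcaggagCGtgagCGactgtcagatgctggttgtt

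The Tet2 promoter is shown for contrast, as RefSeq gives it (GRCm38.p6, - strand, 250 bases before the transcription start to 50 bases after). It holds 57 CpGs in 300 bases, of which 13 were measured. The mean level of those CpGs over all samples did not exceed 2.23%. Of 32851 RefSeq mouse promoters of this length, 52.8% held at least 1 CCGG, read on both strands at once because the motif is its own reverse complement, and the Tet2 promoter held 5.
Tet2 promoter, chr3:133544341-133544640: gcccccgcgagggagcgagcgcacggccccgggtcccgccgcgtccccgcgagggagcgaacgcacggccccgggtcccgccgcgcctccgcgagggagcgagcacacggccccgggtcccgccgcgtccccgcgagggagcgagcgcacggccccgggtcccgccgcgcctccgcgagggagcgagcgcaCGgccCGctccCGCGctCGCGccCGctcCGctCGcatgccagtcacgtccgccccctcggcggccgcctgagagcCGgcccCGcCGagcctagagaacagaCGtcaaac

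Methylation of the members varied with distance from a transcription start. The methylation level of a cluster in a mouse is the percentage of its calls that were methylated, and the values given are means over mice. Of the 13 clusters whose middle lay within 1000 bp of a start in GENCODE or RefSeq, 11 were at 5% or less in WT muscle, with a median of 0.718%. Of the 15 clusters farther away, 9 were at 70% or more, with a median of 76.1%, and 5 were between, at 6.70 to 53.2%. Near a start, the Dnmt3a cluster 82 bp upstream of the internal start was at 18.5% and the Mbd3 cluster chr10:80394950-80395006, 741 bp after the start of the Mbd3-202 transcript, was at 93.3%. Away from a start, the intronic Dnmt3a cluster chr12:3871815-3871919, 19861 bp from one, was at 4.04%. In all, 112 of the 160 CpGs were at 5% or less in WT and 17 were at 80% or more.

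**Figure D1:**
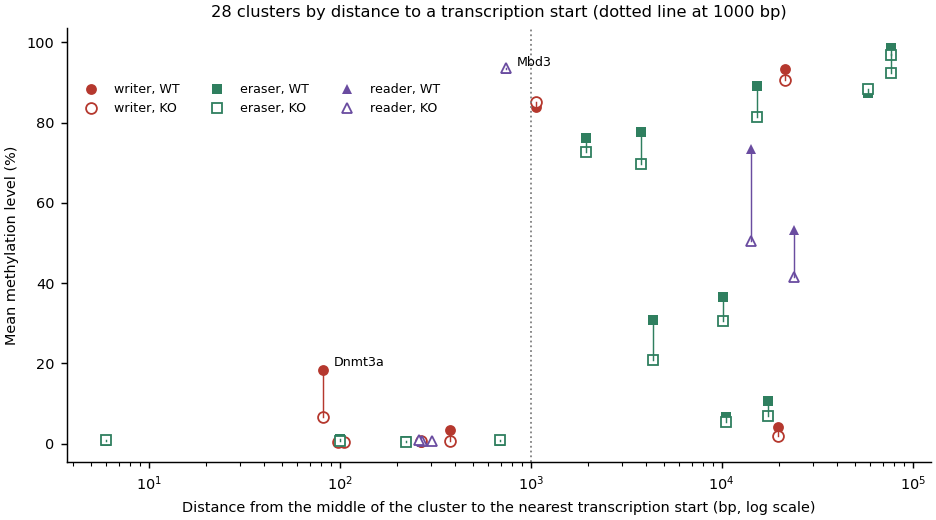
Mean methylation level in percent of each of the 28 member clusters against the distance in bp (log scale) from the middle of the cluster to the nearest transcription start, with filled symbols for WT (21 mice), open symbols for KO (mD3AKO, 23 mice) and a line joining them. Left of 1000 bp, 11 of 13 clusters sit at 5% or less in WT, and the labelled Dnmt3a and Mbd3 clusters do not.

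Methylation of the members was lower in mD3AKO than in WT muscle at 21 of 28 clusters, with a median difference of -1.46 percentage points. Over all 51038 clusters, 62.4% were lower in mD3AKO, with a median of -0.455 points. The 12 member clusters at 5% or less in WT differed by a median of -0.106 points, the 10 clusters at 70% or more by -2.97 points and the 6 clusters between them by -7.97 points. Each of those 6 clusters was lower in mD3AKO. Over all clusters the difference also varied with level, with a median of -0.0494 points at 5% or less in WT. The range of 20 to 80% in WT holds 6 member clusters, in part other ones. There, 6 of 6 member clusters were lower (median -9.05 points), beside 63.6% of all clusters (median -1.72 points). Among clusters over 5% in WT, 13 of 16 member clusters (81.25%) were lower, beside 64.5% of all such clusters. No set test was made on these counts. The genotypes overlapped at every member cluster, and the share of all clusters with overlap is not given here.

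Genotype was tested with edgeR's quasi-likelihood F test on methylated and unmethylated counts, as the mean of the 4 mD3AKO groups against the mean of the 4 WT groups, with p-values adjusted by Benjamini-Hochberg over all clusters. Of the 28 member clusters, 1 passed an adjusted p of 0.05, an Mbd2 cluster that fell in mD3AKO. The background was 1.09% of all clusters called, and 1.09% called lower. At an unadjusted p under 0.05 there were 5 of 28 member clusters (background 9.56%), in Mbd2, Dnmt3a, Tet1, Dnmt1 and Tet2, and the first 4 were lower in mD3AKO. With edgeR's likelihood ratio test 2 member clusters were called (background 2.77%), with a quasi-binomial model 2 (2.54%) and with limma on log ratios 1 (1.75%). The second cluster was the Dnmt3a cluster printed above.

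**Figure D2:**
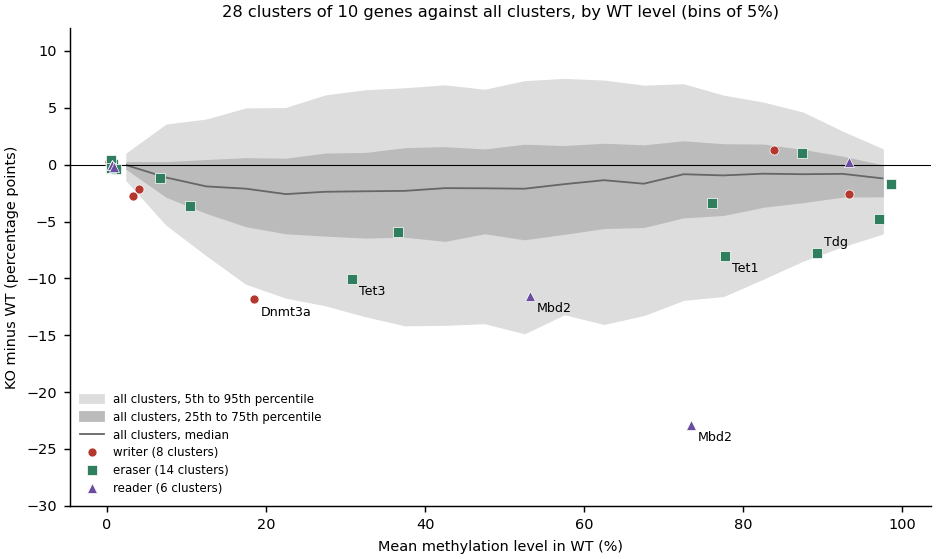
Difference in mean methylation level, KO (mD3AKO) minus WT in percentage points, against the mean WT level in percent, for the 28 member clusters by role and, as grey bands, the percentiles of all clusters in bins of 5%. The Mbd2 cluster at 73.4% in WT lies 22.9 points below 0, under the 5th percentile of all clusters at its level, and clusters with a WT level near 0 lie near the zero line.

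Among the writers, Dnmt3a (ENSMUSG00000020661) was measured at 21 CpGs in 3 clusters. The cluster chr12:3891626-3891666 holds 4 CpGs in an intron of the full-length transcript Dnmt3a-201 (23 exons, 908 residues), 62 to 102 bp upstream of the start of the short transcript Dnmt3a-205 (18 exons, 689 residues). It was covered by 49 to 565 calls per mouse. The 95% Wilson interval of a mouse's level had a half-width of 0.739 to 12.7 points. It covers counting error only and takes the calls as independent, so it is too narrow where CpGs share a read.

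At rest, the Dnmt3a cluster was methylated at 2.04, 67.3, 23.3, 27.7 and 24.7% in the 5 WT mice and at 0.847, 0, 2.80, 3.20 and 9.80% in the 5 mD3AKO mice. At 10 min it was at 30.3, 21.4, 20.3, 33.1 and 0% in WT and 14.2, 0, 2.61, 6.02 and 12.4% in mD3AKO. Thus 4 of 5 WT mice lay above every mD3AKO mouse at each of these times, and the remaining WT mouse was among the mD3AKO values. At 30 min the WT mice were at 8.02, 3.73, 12.2, 14.3 and 9.70%, and the 7 mD3AKO mice ranged from 0 to 7.69% with a median of 3.49%. At 60 min the WT mice ranged from 2.41 to 46.7% with a median of 6.61%, and the mD3AKO mice from 0 to 55.9% with a median of 3.11%. The groups overlapped most at 60 min, where the highest value belonged to an mD3AKO mouse.

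Over all times the Dnmt3a cluster was at 18.5% ± 16.7 in WT (SD, n = 21) and 6.62% ± 11.5 in mD3AKO (n = 23), and 22 of 23 mD3AKO mice were below the WT mean. The log2 odds ratio was -2.06 (SE 0.640), with an adjusted p of 0.127 in the quasi-likelihood test. Other models placed it on either side of the threshold. The adjusted p was 0.0170 in edgeR's likelihood ratio test, 0.0229 in the quasi-binomial model and 0.0619 in limma. The difference was -15.0 points in females and -8.92 points in males. By time it was -25.7, -14.0, -5.79 and -2.60 points at rest and 10, 30 and 60 min. It was -16.1 points at rest without the WT mouse at 67.3%, -11.3 points at 60 min without the mD3AKO mouse at 55.9%, and 3.76 points at 60 min without the WT mouse at 46.7%. The WT mouse at 67.3% had the fewest calls at this cluster (49). The mD3AKO mouse at 55.9% had the fewest calls over all CpGs (12819404). At 60 min, leaving out any of 10 of the 12 mice moved the difference by over 1.5 times. The interaction of genotype and time at this cluster had an unadjusted p of 0.614.

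The CpGs of the Dnmt3a cluster differed among themselves. The CpG at chr12:3891666, closest to the start, was at 29.3% ± 24.2 in WT and 8.70% ± 17.9 in mD3AKO. It was the member CpG called by the quasi-likelihood test on single CpGs (adjusted p = 0.0239), out of 160 member CpGs and against a background of 0.289%. It was not called by the quasi-binomial model (adjusted p = 0.171), in which the 3 member CpGs called were all in the Mbd2 cluster (background 0.406%). The CpGs at chr12:3891631 and chr12:3891633 were at 15.2% and 19.2% in WT and 5.69% and 6.38% in mD3AKO. The first CpG, chr12:3891626, was at 1.5% ± 5.98 in WT and 5.54% ± 14.5 in mD3AKO, and it was at 0 in 19 WT and 17 mD3AKO mice.

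**Figure D3:**
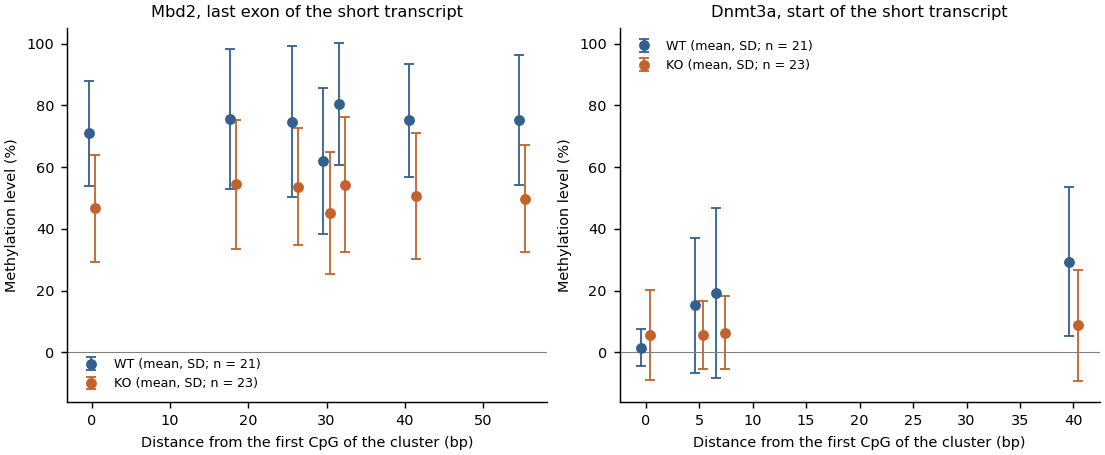
Methylation level in percent of each measured CpG (mean, with the SD as bars) against its distance in bp from the first CpG of the cluster, for the Mbd2 and Dnmt3a clusters with the lowest genotype p-values, in WT (n = 21) and KO (mD3AKO, n = 23). In Mbd2 all 7 CpGs are lower in KO, and in Dnmt3a the first CpG is at 1.5% in WT and 5.54% in KO while the last is at 29.3% in WT and 8.70% in KO.

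The 2 other Dnmt3a clusters were close to unmethylated. The promoter cluster chr12:3806533-3807218, with 13 CpGs around the start of Dnmt3a-201, ranged from 0 to 1.10% in WT (median 0.137%) and from 0 to 3.88% in mD3AKO (median 0%). The means were 0.283% and 0.504%, and the log2 odds ratio was -0.14, opposite in sign to the difference in means (adjusted p = 1). The intronic cluster chr12:3871815-3871919 was at 4.04% ± 4.77 in WT and 1.94% ± 2.55 in mD3AKO (adjusted p = 0.693). Summed over the gene body, Dnmt3a was at 4.11% ± 3.20 in WT and 1.76% ± 1.60 in mD3AKO. By the quasi-likelihood test its adjusted p was 0.243, and 0 of 10 member gene bodies were called (background 1.42%), with 2 of 10 at an unadjusted p under 0.05 (background 9.77%). By the quasi-binomial model its adjusted p was 0.0441, and it was the 1 member gene body of 10 called (background 2.32%).

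The deletion itself could not be read from these data. Exon 19 of Dnmt3a lies at chr12:3902666-3902814, and the nearest measured CpG was 11000 bp away. Coverage at the 21 Dnmt3a CpGs, relative to the total calls of each sample, was 0.888 to 1.24 times as high in mD3AKO as in WT, and no CpG differed (lowest adjusted p = 0.442, permutation test over the 21 CpGs). Coverage outside the floxed exon does not check the genotype.

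The clusters with levels most like those of the Dnmt3a cluster over the 44 samples, among 36874 clusters at 5 to 95%, were an intergenic cluster at chr14:57407690-57407752 (Pearson r = 0.659), a CpG at chr7:112170521 outside annotated genes (r = 0.606) and a cluster in Rbm20, which encodes a splicing factor of striated muscle, at chr19:53843557-53843621 (r = 0.600). The intergenic cluster was at 14.2% in WT and 7.83% in mD3AKO. These are the highest values of many, the samples share their genotype and libraries, and no test was made.

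Dnmt3b (ENSMUSG00000027478), the other de novo methyltransferase, was measured at 6 CpGs near its start, at chr2:153649735-153650032. It was at 0 in 16 of 21 WT and 16 of 23 mD3AKO mice, with highest values of 3.35% and 8.83%. With 72 to 790 calls per mouse, a count of 0 would allow a level of up to 0.380 to 4.17% in a single mouse if the calls were independent. Neighbouring CpGs can share a read, and a single CpG had as few as 9 calls in a mouse, so the true bound is wider. The means were 0.443% ± 1.04 and 0.566% ± 1.85. Whole groups had no methylated call, so that an odds ratio between genotypes could not be estimated.

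Dnmt1 (ENSMUSG00000004099), the maintenance methyltransferase, had 22 CpGs in 4 clusters. The cluster chr9:20952206-20952244, in an untranslated exon 380 bp after the start of Dnmt1-207, ranged from 0 to 18.0% in WT (median 1.10%) and from 0 to 4.23% in mD3AKO (median 0%). It was at 0 in 9 of 21 WT and 14 of 23 mD3AKO mice, so that the difference rested on the WT mice with some methylation. The means were 3.35% ± 4.79 and 0.620% ± 1.07, and the log2 odds ratio of -1.82 (SE 0.756) did not pass the adjustment (unadjusted p = 0.0203, adjusted p = 0.375). The cluster of 13 CpGs directly upstream of the start of Dnmt1-203, chr9:20952640-20952803, was at 0.617% and 0.398%. The intronic clusters were highly methylated in both genotypes. The level was 93.3% ± 7.33 in WT and 90.8% ± 7.34 in mD3AKO at chr9:20931187-20931230, and 83.8% ± 6.22 and 85.1% ± 7.46 at the printed cluster chr9:20958779-20958851.

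Uhrf1 (ENSMUSG00000001228), which recruits DNMT1, was measured at 12 CpGs in 1 promoter cluster, chr17:56303796-56304293. The levels ranged from 0.0617 to 3.55% in WT (median 0.392%) and from 0 to 2.06% in mD3AKO (median 0.310%). The means of 0.718% ± 0.866 and 0.681% ± 0.735 differed by far less than the spread between mice (log2 odds ratio -0.19, SE 0.505, adjusted p = 0.983).

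**Figure D4:**
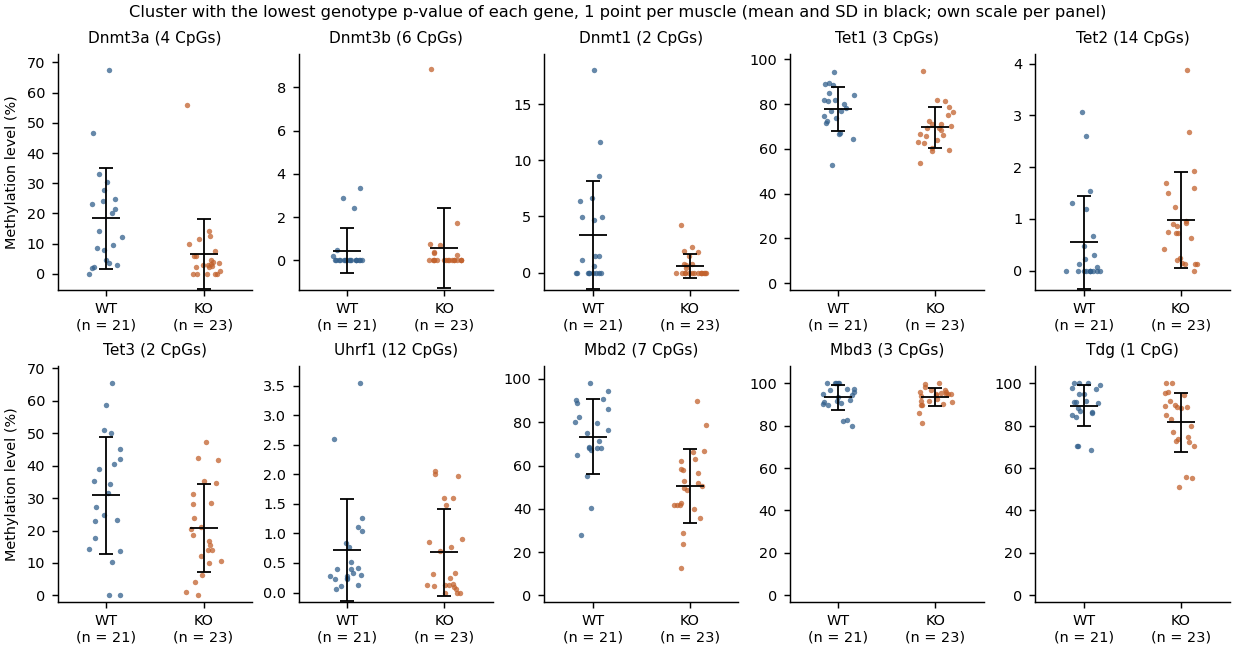
Methylation level in percent per soleus at the cluster with the lowest genotype p-value of each of the 10 members, in WT (21 mice) and KO (mD3AKO, 23 mice), with 1 point per mouse and the mean and SD in black. Each panel has its own scale. The genotypes overlap in every panel, and the Mbd2 panel has medians of 75.0% and 50.3%.

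Among the erasers, Tet1 (ENSMUSG00000047146), a methylcytosine dioxygenase, had 24 CpGs in 3 clusters. At the printed intronic cluster chr10:62891070-62891137, the levels ranged from 52.8 to 94.2% in WT (median 78.4%) and from 53.9 to 94.7% in mD3AKO (median 69.2%). Most mD3AKO mice (19 of 23) lay below the WT mean, within overlapping ranges. The means were 77.7% ± 9.80 and 69.6% ± 9.05, with a log2 odds ratio of -0.68 (SE 0.266, unadjusted p = 0.0143, adjusted p = 0.317). The difference was -8.83, -13.9, -8.42 and -1.71 points at rest, 10, 30 and 60 min. The intronic cluster chr10:62885331-62885397 was at 76.1% and 72.7%. Between the last-named cluster and the start that RefSeq gives, the 17 CpGs of chr10:62885984-62887274 were at 0.745% and 0.808%, close to unmethylated in both genotypes. Within that cluster the outermost CpG, chr10:62885984, was at 6.83% in WT and 2.50% in mD3AKO (unadjusted p = 0.00743, adjusted p = 0.429).

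Tet2 (ENSMUSG00000040943), a second dioxygenase, had 22 CpGs in 6 clusters and was the member with the widest span of levels. The promoter cluster chr3:133544321-133544448, of 14 CpGs, ranged from 0 to 3.07% in WT (median 0.0784%) and from 0 to 3.87% in mD3AKO (median 0.750%). It was at 0 in 10 of 21 WT mice and in 1 of 23 mD3AKO mice. The means were 0.551% ± 0.898 and 0.972% ± 0.929. The log2 odds ratio of 1.44 (SE 0.662) made it the member cluster of lowest p among those higher in mD3AKO, and it did not pass the adjustment (unadjusted p = 0.0352, adjusted p = 0.465). Tested as whole promoters, 0 of 6 member promoters were called (background 0.789%), and the Tet2 promoter was the 1 with an unadjusted p under 0.05 (background 8.13%).

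Inside Tet2, the 3 coding-exon clusters were near full methylation. They were at 97.1% ± 6.20 in WT and 92.3% ± 14.0 in mD3AKO (chr3:133466957, with only 9 to 103 calls per mouse), 98.6% ± 3.19 and 96.9% ± 8.83 (chr3:133467063), and 87.4% ± 10.0 and 88.4% ± 9.98 (chr3:133486189-133486196). In an intron, 10183 and 10583 bp from the start of Tet2-204, methylation was lower. The printed cluster chr3:133534151-133534220 was at 36.5% ± 20.0 and 30.6% ± 14.0 (adjusted p = 0.926), and the single CpG chr3:133533785 at 6.70% ± 10.1 and 5.49% ± 9.92.

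Tet3 (ENSMUSG00000034832), the third dioxygenase, had 24 CpGs in 4 clusters. Its printed intronic cluster, chr6:83451994-83452004, ranged from 0 to 65.4% in WT (median 31.7%) and from 0 to 47.4% in mD3AKO (median 18.8%). The means were 30.8% ± 18.0 and 20.8% ± 13.5, and 17 of 23 mD3AKO mice were below the WT mean (log2 odds ratio -0.83, SE 0.535, adjusted p = 0.705). The difference was -21.4 points in males and 2.44 points in females, and the difference between the sexes was not tested. Of its CpGs, chr6:83451994 was at 16.7% in WT and 6.43% in mD3AKO (unadjusted p = 0.00808, adjusted p = 0.442). The intronic cluster chr6:83424253-83424294 was at 10.5% ± 8.93 and 6.93% ± 7.48. The clusters at the starts of Tet3-202 and Tet3-203 were at 1.15% and 0.584% in WT and 0.731% and 0.310% in mD3AKO. All 4 Tet3 clusters were lower in mD3AKO, and none passed the adjustment.

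Tdg (ENSMUSG00000034674), the glycosylase of the pathway, had 1 measured CpG, in an intron at chr10:82645125. The level ranged from 68.5 to 100% in WT (median 90.9%) and from 51.3 to 100% in mD3AKO (median 84.9%). The means were 89.3% ± 9.64 and 81.5% ± 14.0, with 16 of 23 mD3AKO mice below the WT mean (log2 odds ratio -0.81, SE 0.596, adjusted p = 0.777). The fitted log2 odds ratio was 1.15 at rest and 0.32 in males, where the difference in means was 5.01 points and -6.95 points, so that in males the odds ratio and the means had opposite signs.

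Among the readers, Mbd2 (ENSMUSG00000024513) had 23 CpGs in 3 clusters and gave the member cluster called under every model. This cluster, chr18:70582481-70582537, holds 7 CpGs, 29 bp or more after the last coding base of the short transcript Mbd2-202 (3 exons, 249 residues), in the untranslated part of its last exon. In the full-length transcript Mbd2-201 (7 exons, 414 residues) the same bases are intronic. None of the 7 CpGs lay in a CCGG. The cluster was covered by 236 to 2187 calls per mouse, with a Wilson half-width of 1.07 to 6.30 points.

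At rest, the Mbd2 cluster was methylated at 88.8, 40.3, 98.1, 76.6 and 65.0% in the 5 WT mice and at 50.3, 41.7, 41.6, 42.5 and 66.3% in the 5 mD3AKO mice. At 10 min it was at 68.2, 71.2, 27.7, 68.1 and 90.1% in WT and 66.7, 28.9, 62.3, 51.8 and 35.9% in mD3AKO. At each of these times 1 WT mouse was below every mD3AKO mouse, and at least 3 WT mice were above all of them. At 30 min the WT mice were at 80.2, 67.1, 79.6, 91.0 and 68.4%, and the 7 mD3AKO mice ranged from 40.1 to 89.7% with a median of 52.8%, 2 of them within the WT range. At 60 min the WT mice ranged from 55.1 to 94.5% with a median of 78.7%, and the mD3AKO mice from 12.5 to 62.9% with a median of 52.5%. The groups overlapped at every time.

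Over all times the Mbd2 cluster fell from 73.4% ± 17.3 in WT to 50.5% ± 17.3 in mD3AKO, a difference of -22.9 points, and 21 of 23 mD3AKO mice were below the WT mean. The log2 odds ratio was -1.72 (SE 0.433, quasi-likelihood adjusted p = 0.0314). The adjusted p was 0.00300 in the likelihood ratio test, 0.000659 in the quasi-binomial model and 0.0152 in limma. By time the difference was -25.2, -15.9, -18.6 and -33.0 points at rest and 10, 30 and 60 min, and it was -26.7 points in females and -19.3 in males. At 10 min it was -25.3 points without the WT mouse at 27.7% and -9.69 points without the WT mouse at 90.1%. Each of the 7 CpGs was lower in mD3AKO, by 16.8 to 26.2 points. In subsets of the samples the direction was the same but the call was lost, with an adjusted p of 1 at rest, 0.417 in females and 0.645 in males.

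**Figure D5:**
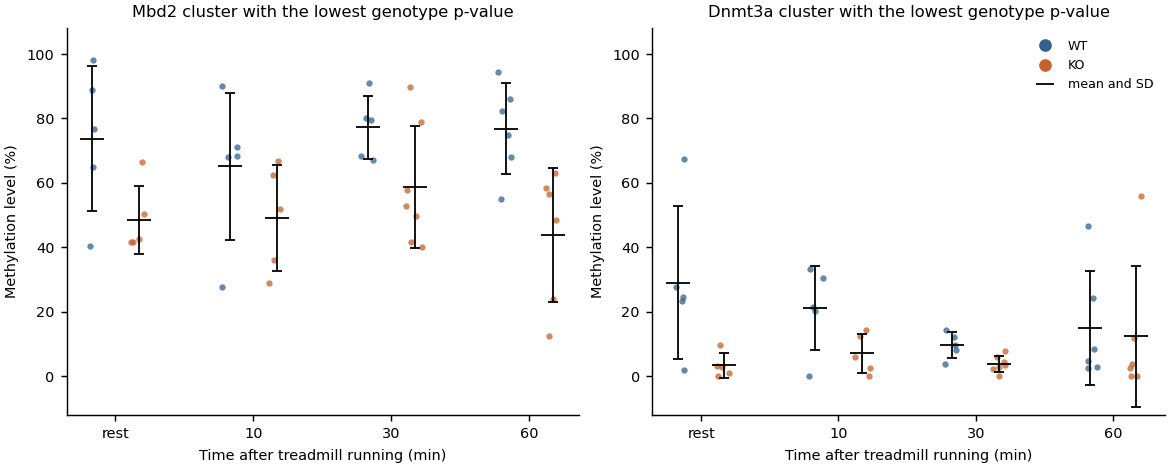
Methylation level in percent per soleus at the Mbd2 and Dnmt3a clusters with the lowest genotype p-values, at rest and 10, 30 and 60 min after running, with 1 point per mouse for WT and KO (mD3AKO) and the mean and SD in black. At the Mbd2 cluster the KO mean is below the WT mean at each time, by 15.9 to 33.0 points, and at the Dnmt3a cluster the KO mouse at 55.9% stands apart at 60 min.

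The second intronic Mbd2 cluster, chr18:70592173-70592273, was at 53.2% ± 21.4 in WT and 41.6% ± 15.8 in mD3AKO (unadjusted p = 0.0573, adjusted p = 0.549). Its 5 CpGs differed by between -0.996 and -23.8 points. The promoter cluster, chr18:70568153-70569122 with 11 CpGs, ranged from 0 to 2.73% in WT (median 0.282%) and from 0 to 2.84% in mD3AKO (median 0.297%). Over the whole gene body Mbd2 was at 36.3% ± 11.5 and 26.4% ± 8.22, and neither the quasi-likelihood test (adjusted p = 0.138) nor the quasi-binomial model (0.0564) called it.

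Mbd3 (ENSMUSG00000035478) had 5 CpGs in 2 clusters at opposite ends of the scale. The intronic cluster chr10:80394950-80395006 ranged from 79.7 to 100% in WT (median 94.3%) and from 81.4 to 100% in mD3AKO (median 94.9%), with means of 93.3% ± 6.07 and 93.5% ± 4.27 (adjusted p = 0.969). The promoter cluster chr10:80399024-80399301 was at 0 in 18 of 21 WT and 21 of 23 mD3AKO mice, with highest values of 14.5% and 10.2%, and its odds ratio could not be estimated because whole groups had no methylated call. The difference in means and the log2 odds ratio had opposite signs at 3 clusters with small differences where it could be estimated, in Dnmt3a (promoter), Tet1 (chr10:62885984-62887274) and Mbd3 (intron).

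Time after exercise was tested jointly over the 3 times against rest. None of the 28 member clusters passed the quasi-likelihood test (background 0%), and 2 had an unadjusted p under 0.05 (background 2.86%). They were the Tet2 intronic CpG chr3:133533785 (unadjusted p = 0.0150, group means from 0 to 11.8%, with no methylated call in 1 group) and the start of Dnmt1, chr9:20952640-20952803 (unadjusted p = 0.0264, group means from 0.0868 to 1.29%). For the interaction of genotype and time 0 of 28 were called (background 0%) and 2 had an unadjusted p under 0.05 (background 2.74%), in Tet2 (chr3:133466957, unadjusted p = 0.00818) and Dnmt3b (unadjusted p = 0.0271). At that Tet2 CpG 2 groups had no unmethylated call and at Dnmt3b 2 groups had no methylated call, so that the fitted interactions are undetermined and these p-values rest on groups at the bound. The likelihood ratio test, the quasi-binomial model and limma also called 0 member clusters for time and for the interaction. Their backgrounds, in that order, were 0.0196%, 0% and 0% for time and 0.0137%, 0% and 0.00196% for the interaction.

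Each time was also set against rest within a genotype, where the 3 contrasts of a genotype share its rest samples. No member cluster was called in any of the 6 contrasts (background 0% in each). At an unadjusted p under 0.05 there were 2, 1 and 0 member clusters at 10, 30 and 60 min in WT, with backgrounds of 4.29%, 3.17% and 3.67%, and 2, 2 and 3 in mD3AKO, with backgrounds of 2.89%, 2.8% and 3%. The 2 in WT at 10 min were Dnmt3b (0% in each mouse at 10 min) and Tet2 chr3:133466957 (100% in each at rest). In mD3AKO, Tet2 chr3:133533785 (10 and 60 min) was at 0% in each mouse at rest. Tet2 chr3:133466957 (30 min) was at 100% in each mouse at 30 min. These p-values rest on groups at the bound. The Tdg CpG was counted at all 3 times in mD3AKO. Between males and females 0 of 28 member clusters were called (background 0%) and 2 had an unadjusted p under 0.05 (background 4.36%). Both were lower in males, Tet2 chr3:133467063 by a log2 odds ratio of -1.90 and Tet3 chr6:83424253-83424294 by -1.24.

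Other genes of the pathway were examined as 4 lists. Of partners of de novo and maintenance methylation, 10 of 12 genes were measured in 26 clusters, and 1 cluster was called (background 1.09%). It lies 22 bp upstream of the transcript Kdm2b-205, at chr5:122989831-122989860. KDM2B is a histone demethylase that binds unmethylated CpG islands. The level was 9.18% ± 7.42 in WT and 1.00% ± 2.01 in mD3AKO, and 23 of 23 mD3AKO mice were below the WT mean (log2 odds ratio -3.63, SE 0.675, adjusted p = 0.00163). The cluster holds 2 CpGs and was at 0 in 3 of 21 WT and 16 of 23 mD3AKO mice. The ranges overlapped, at 0 to 24.1% in WT and 0 to 7.39% in mD3AKO.

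No cluster was called in the other lists. They were other readers (9 of 13 genes, 19 clusters, lowest adjusted p = 0.248 at Zbtb38, 55.6% in WT and 42.1% in mD3AKO), active demethylation and base excision repair (20 of 20 genes, 32 clusters, lowest adjusted p = 0.0582 upstream of Neil1, a DNA glycosylase, 0.151% and 0.756%) and methyl donor and cofactor supply (10 of 13 genes, 18 clusters, lowest adjusted p = 0.301 in Idh2, 43.5% and 58.7%). The counts lower in mD3AKO were 18 of 26, 13 of 19, 22 of 32 and 9 of 18 clusters, beside 62.4% of all clusters.

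Sequencing depth was 12819404 to 41285655 methylation calls per sample, with a median coverage per CpG of 48 to 163, and member clusters had 9 to 4019 calls per sample. The Wilson half-widths of single levels reached 21.6 points at the Tet2 CpG chr3:133533785 and were 0.0904 to 0.793 points at the 17 CpGs of Tet1 near its start. In whole muscle, a lower methylation in the same cells and a different share of cell types cannot be told apart. Of 8 muscle fibre markers, 6 were measured in 12 clusters and none was called. Of 6 markers of other cells (immune, endothelial, fibroblast and fat), Pecam1 was measured, in 5 clusters of which 2 were lower in mD3AKO (median difference 1.14 points) and none was called, with a lowest adjusted p of 0.122 (31.3% in WT and 19.4% in mD3AKO), and the part of cell composition in the values above was not tested.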

How the data were processed

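RRBS was performed on soleus DNA of 50 mice, of which 44 had counts in the deposited table and 6 were not used here. The authors trimmed reads with Trim Galore 0.4.0 (cutadapt 1.9.1), aligned them to mm10 (GRCm38) with Bismark 0.18.1, added the calls of both strands and required 8 reads or more per CpG in each sample, on autosomes. The deposited values are raw counts of methylated and unmethylated calls per CpG and sample. The authors left out samples with few aligned reads. PCR copies are not told apart in RRBS, and neighbouring CpGs can share a read. The intervals cover counting error only and take all calls as independent, so they can be too narrow. Groups came from the sample labels. Sample numbers 1 to 25 were at rest or 60 min and 26 to 50 at 10 or 30 min, so that this split cannot be told apart from time.

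Counts were summed over the deposited clusters, promoters (from 3000 bp before to 1000 bp after a start) and gene bodies, and fitted over the whole table with edgeR 4.0.16 in R 4.3.3: a coefficient per sample, a methylation mean for each of the 8 groups, 1 common dispersion, and the quasi-likelihood F test, two-sided, with Benjamini-Hochberg adjustment over all features of a kind and a threshold of 0.05. The dispersion came from all features in the main cluster, promoter and gene body fits. It came from every 10th feature in the other quasi-likelihood fits. The test was also run on simulated counts with a fixed spread and base levels kept away from both ends of the scale. That run does not cover clusters close to unmethylated, and no result here rests on it. As alternatives, edgeR's likelihood ratio test was run, as were a quasi-binomial model (0.5 added to counts), limma 3.58.1 on log2 ratios (pseudocount 1), at least 20 reads per CpG, gaps of 50 and 200 bp between clusters, clusters at 5 to 95% only, subsets of samples, sex as a covariate and each sample left out in turn. The SE given with a log2 odds ratio is its absolute value divided by the square root of the F statistic, and not an SE reported by the fit. The coverage test used 100000 permutations.

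Exons and starts came from GENCODE M21 and RefSeq, both on GRCm38, and promoter sequences from RefSeq. Distances were taken from the middle of a cluster, and the Wilson intervals were at 95%. Genes named in full were all members, each by its cluster of lowest genotype p and its promoter cluster with the most CpGs. From the other lists a gene was named where it was called or had the lowest p of its list. The members and lists were chosen with earlier results of these data known. Replicate mice of a group differed by more than the counting error of independent calls (chi-square per CpG of 5.98 to 14.0 over 101 pairs). A single sample, labelled knockout in its title and wild-type in its genotype, was not assigned to a group.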

Additional observations from a re-analysis of the deposited data

Results flagged for a closer look

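In groups of 5 to 7 mice, 11 of 80 sets of values at the clusters of lowest genotype p had 1 mouse far from the others by Dixon's criterion. In 5 of the 11 every other mouse was at 0, where any single mouse with a methylated call meets the criterion, so that the usual chance rate of 1 in 20 does not apply to this count. At the internal start of Dnmt3a, an mD3AKO mouse at 60 min was at 55.9% while the others were at 0 to 11.7%. At Dnmt3b the single mice were at 0.459% (WT, 30 min), 3.35% (WT, 60 min) and 0.730% (mD3AKO, rest), each with all others at 0, and at 8.83% (mD3AKO, 30 min) with the others at 0 to 0.336%. At the untranslated exon of Dnmt1, an mD3AKO mouse at rest was at 0.649% with the others at 0, and another at 60 min was at 2.27% with the others at 0 to 0.379%. At the Tet2 promoter, a WT mouse at 10 min was at 1.20% with the others at 0, and a WT mouse at 60 min was at 3.07% with the others at 0 to 0.470%. At Uhrf1 a WT mouse at rest was at 3.55% (others 0.392 to 1.26%). At Tdg an mD3AKO mouse at rest was at 72.9% (others 94.4 to 100%), and it was the same mouse that was at 0.730% at Dnmt3b.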

How the results depend on the processing

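The Mbd2 cluster was the 1 member cluster called under a coverage minimum of 20, gaps of 50 and 200 bp, clusters at 5 to 95% only, sex as a covariate and limma (backgrounds 0.797 to 1.75% of all clusters), and 2 were called (with Dnmt3a) by the likelihood ratio test and the quasi-binomial model (2.77% and 2.54%). Each CpG of the Dnmt3a cluster had a lowest count of 10 or 11 calls in a mouse. That cluster was therefore not tested under the minimum of 20. Leaving out each sample in turn under the quasi-binomial model gave 2 to 2 (backgrounds 2.20 to 2.74%), with a highest adjusted p of 0.00193 at Mbd2 and 0.0456 at Dnmt3a. None (0) was called at rest only, in samples 1 to 25 or 26 to 50, in females or in males, each a subset of the samples (backgrounds 0 to 0.0784%). The quasi-binomial model called 1 gene body (background 2.32%) and 3 CpGs (0.406%), and a coverage minimum of 20 left 0 of 83 CpGs called (0.491%). The CpG chr12:3891666, called without that minimum, had as few as 11 calls in a mouse and was not among the 83 CpGs tested. No call for time, the interaction, each time or sex changed. Of the 13 named clusters, 9 were lower in mD3AKO, with 8 by unweighted means, 11 in samples 1 to 25, 6 in samples 26 to 50 and 7 to 10 with a sample left out. The log2 odds ratio changed sign at Dnmt3b in samples 26 to 50 (2.52) and in females (1.60), where groups without methylated calls leave the fitted value undetermined, at Tet3 in females (0.45), at Uhrf1 in the quasi-binomial model (0.0504), in samples 26 to 50 (0.65) and in males (0.0542), at Mbd3 in the quasi-binomial model (0.19), and at Tdg at rest (1.15) and in males (0.32). With a sample left out it ranged from -0.93 to 0.91 at Dnmt3b, -0.0731 to 0.28 at Mbd3 and -0.23 to 0.35 at Uhrf1. No paired analysis was possible because no sample number in the labels is shared between groups. Depth limits single levels at clusters with few calls, such as those of Tet2 with 9 to 103 calls.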
